A study of Mus musculus with 12 samples.

Results

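Amino acid transporters of the plasma membrane and the lysosome were followed in cultured mouse islets. The genes were taken by symbol: every gene of the solute carrier families 1, 3, 6, 7, 36, 38 and 43 in the count table, without Slc7a2 and Slc7a11. This gave 36 of the 14089 genes measured. Of the 36, 34 carry the name of a transporter or of its heavy chain. The other 2 have a symbol of the same form but are no transporters: Slc6a19os is annotated as an antisense gene, and Slc7a6os is a protein-coding neighbour on the strand opposite to Slc7a6.

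These families bring amino acids into the cell, exchange one for another, and let them out of the lysosome. Some carriers are driven by sodium or protons and can concentrate their substrate. Others are exchangers, made of a light chain that carries the substrate and a heavy chain that brings it to the cell surface. In beta cells, amino acid uptake feeds insulin synthesis, contributes to the depolarisation that triggers secretion, and supplies the signal that mTORC1, the kinase complex that couples growth to nutrients, reads at the lysosome.

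The islets came from C57BL/6J mice and were cultured in 4 ways, with 3 libraries each: cytokines plus ML351, cytokines alone, ML351 alone, or vehicle. The cytokine mixture held IL-1β at 5 ng/ml, TNF-α at 10 ng/ml and IFN-γ at 100 ng/ml, a standard model of islet inflammation. ML351, a small-molecule inhibitor of 12/15-lipoxygenase, was present at 10 µM, and all cultures ran for 24 hours. Islets hold several cell types, and separate animals or cultures for the replicates are not stated, so p-values here cover the spread between libraries only, which may be technical.

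Totals ran from 20208286 to 27193026 counts per library. The first principal component of all genes, with 82.3% of the variance, separated the 6 libraries with cytokines from the 6 without. On the second, with 5.14%, ML351 replicate 1 lay at -36.8, against -0.6 and 10.2 for the other ML351 libraries, and cytokines replicate 1 lay at 42.3, against -3.5 and 20.1 for the other cytokine libraries. Markers of islet cell types moved with the cytokines. All 8 of 8 alpha cell markers were called lower, and their summed level was 806 to 1446 CPM (counts scaled to library size) in cytokine libraries, against 35251 to 39433 CPM in vehicle libraries. Of the 11 beta cell markers 9 were called lower, with sums of 290319 to 343182 CPM in cytokine libraries and 333640 to 380309 CPM in vehicle libraries. The 5 of 5 delta cell markers (sums 99.9 to 145 CPM with cytokines, 1441 to 1507 CPM with vehicle) and the 9 of 9 endothelial markers (18.5 to 26.0 CPM with cytokines, 88.5 to 95 CPM with vehicle) were lower too, and 7 of 12 macrophage markers were higher, with 1 lower (353 to 373 CPM with cytokines, 227 to 232 CPM with vehicle). Of 6 ductal markers 3 were higher and 1 lower (1467 to 2008 CPM with cytokines, 609 to 777 CPM with vehicle). Of 10 stellate and fibroblast markers 6 were lower and 1 higher (74.3 to 105 CPM with cytokines, 121 to 368 CPM with vehicle). No marker present in the count table was at 0 in all libraries. Some listed markers were absent from that table and have no value here, as for ductal cells, with 7 listed and 6 measured. In whole islets, fewer cells of a type and less RNA per cell cannot be told apart, and the part of these shifts in the transporter changes below was not tested.

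Promoter windows are shown for the gene with the largest rise (Slc6a14), the gene with the highest level per length (Slc3a2), and 2 of the genes that rose and held a searched motif near the start (Slc1a4, where it spans the start, and Slc38a7, upstream of it). Each runs 5′ to 3′ from 250 bases before to 50 bases after the annotated start (RefSeq, GRCm38.p6), at chrX:21714650-21714949 on the plus strand for Slc6a14, and on the minus strand at chr19:8713848-8714147 for Slc3a2, chr11:20332664-20332963 for Slc1a4 and chr8:95853442-95853741 for Slc38a7. The Slc3a2 window lies inside the gene as GENCODE M21 gives it (chr19:8706882-8723369), whose longest form starts further upstream, and its bases after the start were not found in a GENCODE transcript. The GENCODE gene of Slc38a7 (chr8:95835920-95853539) also starts upstream of the RefSeq start, and the motif marked for it lies inside that gene. Capitals mark a motif match.
Slc6a14: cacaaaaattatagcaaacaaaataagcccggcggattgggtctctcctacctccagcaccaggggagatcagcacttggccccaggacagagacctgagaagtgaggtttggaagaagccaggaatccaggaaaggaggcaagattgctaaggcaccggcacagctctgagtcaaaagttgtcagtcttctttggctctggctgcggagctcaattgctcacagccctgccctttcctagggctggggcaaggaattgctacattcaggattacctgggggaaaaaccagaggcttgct
Slc3a2: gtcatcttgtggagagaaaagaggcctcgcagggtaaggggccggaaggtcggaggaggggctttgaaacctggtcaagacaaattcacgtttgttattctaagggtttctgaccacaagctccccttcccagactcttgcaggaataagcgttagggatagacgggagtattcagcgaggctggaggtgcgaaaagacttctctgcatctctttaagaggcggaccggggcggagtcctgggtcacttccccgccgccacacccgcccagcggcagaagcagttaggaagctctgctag
Slc1a4: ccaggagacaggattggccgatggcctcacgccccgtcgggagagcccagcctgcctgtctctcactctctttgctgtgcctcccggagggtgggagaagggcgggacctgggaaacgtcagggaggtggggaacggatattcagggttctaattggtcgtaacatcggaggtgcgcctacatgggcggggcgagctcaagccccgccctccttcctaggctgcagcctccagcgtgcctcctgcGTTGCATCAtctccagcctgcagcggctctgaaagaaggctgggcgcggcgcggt
Slc38a7: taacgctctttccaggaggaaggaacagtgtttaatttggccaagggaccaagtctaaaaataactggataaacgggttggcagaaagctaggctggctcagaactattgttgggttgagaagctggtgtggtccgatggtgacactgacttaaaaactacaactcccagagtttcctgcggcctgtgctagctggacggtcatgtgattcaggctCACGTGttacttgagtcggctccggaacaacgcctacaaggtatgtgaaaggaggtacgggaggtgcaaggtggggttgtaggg
The capitals in Slc1a4 are the reverse complement of TGATGNAAN, the CCAAT/enhancer binding protein-ATF response element (CARE) through which ATF4 acts on amino acid genes, and those in Slc38a7 are an E-box, CACGTG, which is palindromic and is bound by factors of the MYC and TFEB kind.

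RefSeq windows were found for 26 of the 36 genes, and both strands were searched. The CARE letters were present for 2 of the 26 (Slc1a4 and Slc7a7), which is 7.69%, against 2.80% of 10692 genes with a window. The E-box was present for 4 (Slc7a14, Slc36a1, Slc38a5 and Slc38a7), 15.4% against 11.6% of all. The interferon-γ activated site TTCNNNGAA was present for 2 (Slc7a1 and Slc38a9), 7.69% against 8.5% of all. An NF-κB motif was found in 0 of the 26 windows, against 2.13% of all. Of the 4 genes with an E-box, Slc38a7 and Slc36a1 were called higher with cytokines, and Slc7a14 and Slc38a5 lower. Both genes with the interferon-γ activated site were called higher. Of the 2 with the CARE letters, Slc1a4 was called higher and Slc7a7 was not called.

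Cytokines changed most of the transporter genes, in both directions. Against vehicle, 28 of the 36 passed the test (edgeR quasi-likelihood test, Benjamini-Hochberg adjusted p under 0.05 over all genes), 13 higher and 15 lower. Of all genes, 72.5% were called in this comparison, 35.3% higher and 37.2% lower, so the share of 77.8% among the transporters lay near that of the table. Over 2-fold, 6 were higher and 9 lower, against 14.9% and 17.3% of all genes. The median size of the log2 fold change was 0.84 in the transporters, against 0.68 over all genes, and the median signed value was -0.32, against -0.02. Without ML351 replicate 1 and cytokines replicate 1 together, an alternative chosen after the data were seen, the counts were again 13 higher and 15 lower. In 28 of 36 the cytokine and vehicle libraries did not overlap in CPM, against 76.6% of all genes.

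**Figure D1:**
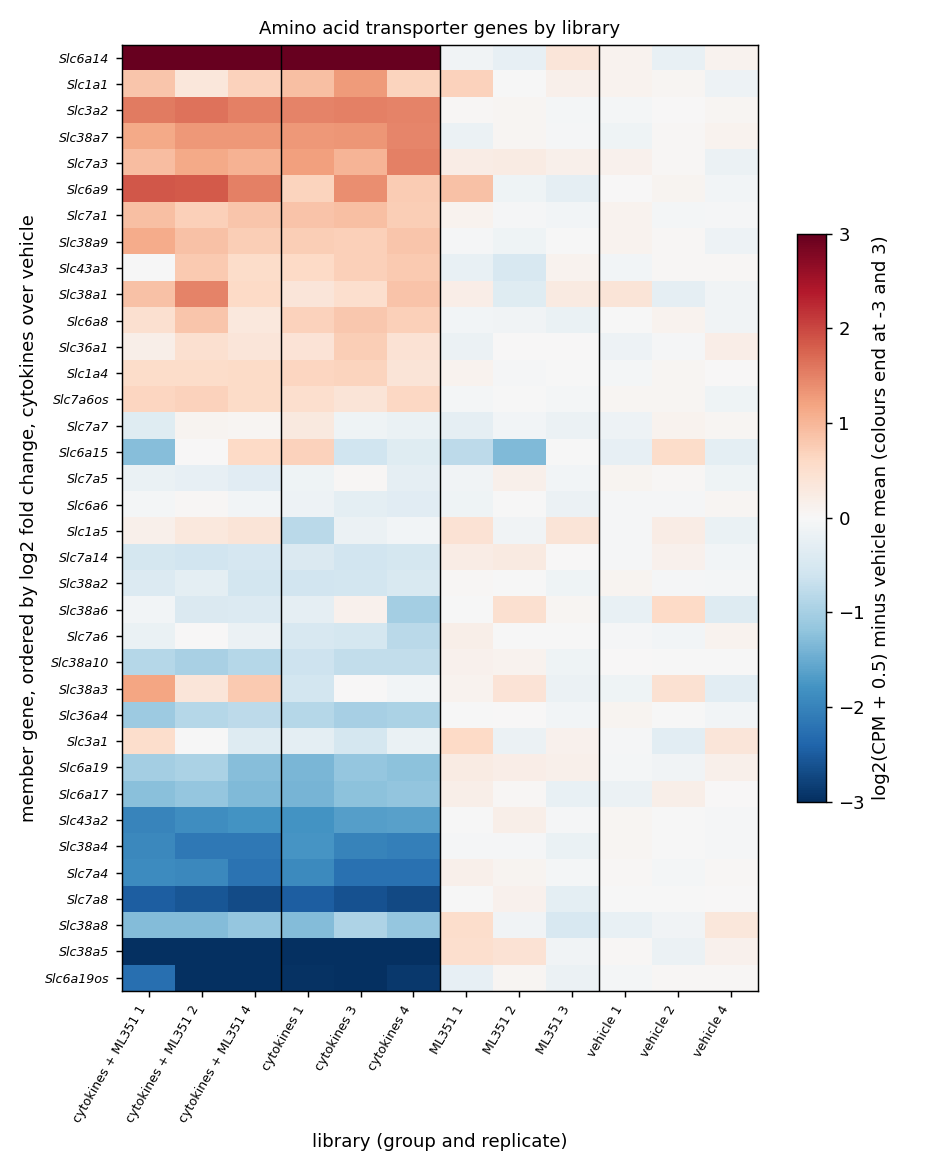
Rows are the 36 genes in order of log2 fold change, columns the 12 libraries by group, and colour is log2(CPM + 0.5) minus the mean of the vehicle libraries, capped at -3 and 3. The 6 libraries with cytokines, at left, hold nearly all of the colour, red at the top (Slc6a14 at 7.30) and blue at the bottom (Slc6a19os at -4.75), and ML351 libraries look like vehicle libraries for most genes.

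The heavy chain Slc3a2 rose with cytokines, while of the 4 light chains among the 36 genes 2 fell and 2 were not called. The cystine light chain Slc7a11, left out by the rule, rose (log2 fold change 3.65, adjusted p = 3.4e-04). Slc3a2, the heavy chain that carries the light chains of the system L, y+L and cystine exchangers to the surface, measured 825, 838 and 818 CPM in cytokine libraries, against 281, 295 and 305 CPM in vehicle libraries. The groups lay far apart, and the log2 fold change was 1.49 ± 0.054 (SE, adjusted p = 1.3e-13). Slc7a8, the light chain of a broad neutral amino acid exchanger, measured 50.6, 46.0 and 43 CPM in cytokine libraries, against 284, 284 and 288 CPM in vehicle libraries. Every cytokine library was below every vehicle library, and the log2 fold change was -2.62 ± 0.094 (adjusted p = 6.2e-13). Slc7a5, the light chain for leucine and other large neutral amino acids, measured 257, 287 and 233 CPM with cytokines, against 299, 287 and 257 CPM with vehicle. These ranges overlapped, and the log2 fold change of -0.12 ± 0.087 did not pass (adjusted p = 0.23). Slc7a6, a light chain that exchanges cationic for neutral amino acids, measured 11, 10.6 and 8.62 CPM with cytokines, against 15.2, 14.7 and 16.7 CPM with vehicle, a fall of 0.62 ± 0.11 on the log2 scale (adjusted p = 9.3e-05). Slc7a7, of the same exchange system, averaged 2.16 CPM with cytokines and 2.15 CPM with vehicle and was not called, nor was Slc3a1, the heavy chain of the renal cystine carrier, at 0.252 CPM or less in cytokine libraries and 0.598 CPM or less in vehicle libraries.

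The ratio of heavy to light chain RNA was higher with cytokines. Per length (CPM per kilobase of exon), Slc3a2 over the sum of Slc7a5, Slc7a6, Slc7a7 and Slc7a8 was 3.06, 3.34 and 3.29 with cytokines plus ML351, and 2.83, 2.65 and 3.14 with cytokines. Without cytokines it was 0.657, 0.575 and 0.658 with ML351, and 0.564, 0.606 and 0.659 with vehicle. All 6 libraries with cytokines lay above all 6 without. Slc7a11, the cystine light chain, measured 85.5, 99.6 and 114 CPM with cytokines, against 7, 10.1 and 6.81 CPM with vehicle. With it in the sum, the ratio was still 2.64 ± 0.186 with cytokines, against 0.607 ± 0.0475 with vehicle (SD, n = 3 each). Among the light chains, Slc7a5 over Slc7a8 was 7.53 ± 0.818 with cytokines and 1.33 ± 0.115 with vehicle. The ratios are given as a description.

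Of the 4 genes of the cationic group, Slc7a1 and Slc7a3 rose and Slc7a4 and Slc7a14 fell. Slc7a2, an arginine and lysine carrier left out by the rule, averaged 72.5 CPM with cytokines and 151 CPM with vehicle and fell too (log2 fold change -1.05, adjusted p = 2.8e-09). Slc7a1, the widely expressed cationic amino acid carrier, measured 50.7, 52.5 and 46.5 CPM in cytokine libraries, against 29.6, 26.7 and 26.8 CPM in vehicle libraries. The log2 fold change was 0.85 ± 0.079 (adjusted p = 3.6e-08). Slc7a3, a close homologue, measured 9.19, 7.85 and 11.2 CPM with cytokines, against 4.03, 3.74 and 3.13 CPM with vehicle, a log2 fold change of 1.37 ± 0.16 (adjusted p = 5.3e-07). Both rose without overlap between groups. Slc7a4, a relative whose transport function is less settled, measured 16.2, 12.9 and 12.9 CPM with cytokines, against 63.7, 60.4 and 63.6 CPM with vehicle, a log2 fold change of -2.15 ± 0.10 (adjusted p = 3.7e-12). It shares 13.3% of its exonic bases with P2rx6, and reads there cannot be assigned in libraries that do not record the strand. Slc7a14, a lysosomal relative, fell to 162, 146 and 152 CPM with cytokines, against 214, 238 and 207 CPM with vehicle (log2 fold change -0.52 ± 0.072, adjusted p = 5.0e-06).

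**Figure D2:**
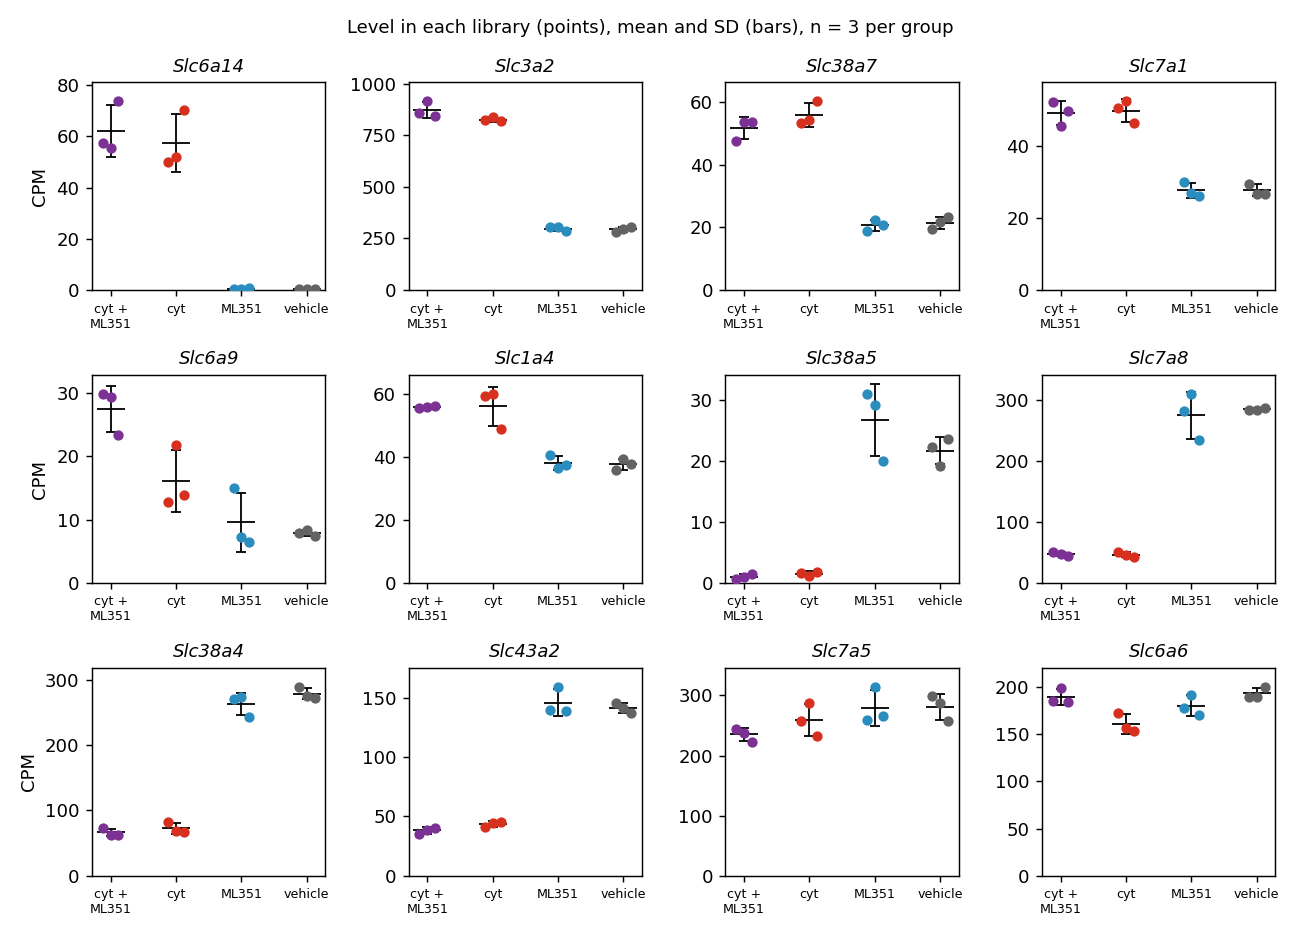
Each panel shows CPM on a linear axis for 1 gene, with a point per library and the mean and SD as bars, for cytokines plus ML351, cytokines, ML351 and vehicle from left to right (n = 3 each). In all panels but Slc7a5 and Slc6a6 the 2 groups with cytokines stand clear of vehicle, as for Slc3a2 at 818 CPM or more with cytokines and 305 CPM or less with vehicle.

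Slc43a2, a facilitative carrier of large neutral amino acids, measured 40.7, 44.4 and 45.3 CPM in cytokine libraries, against 146, 141 and 137 CPM in vehicle libraries. The groups were well apart (log2 fold change -1.70 ± 0.072, adjusted p = 9.6e-13). Slc43a3, a family member known for carrying nucleobases, was low and rose, with a log2 fold change of 0.82 ± 0.26 (adjusted p = 0.0084) and means of 3.77 CPM with cytokines and 2.13 CPM with vehicle.

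In family 1, Slc1a4, the exchanger of alanine, serine and cysteine whose promoter is shown above, measured 59.6, 60.1 and 49.1 CPM in cytokine libraries, against 36, 39.3 and 37.9 CPM in vehicle libraries. Every cytokine library was above every vehicle library, and the log2 fold change was 0.58 ± 0.077 (adjusted p = 3.2e-06). Its relative Slc1a5, which takes up glutamine, measured 3.31, 5.45 and 5.84 CPM with cytokines, against 6.11, 7.29 and 5.39 CPM with vehicle, and was not called (adjusted p = 0.12). Slc1a1, a glutamate and cysteine carrier, was called higher (log2 fold change 1.5 ± 0.40, adjusted p = 0.0031) at a low level, 1.49 ± 0.433 CPM with cytokines and 0.523 ± 0.0956 CPM with vehicle (SD, n = 3 each). It shares 31.9% of its exonic bases with 4430402I18Rik.

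Family 38, the sodium-coupled neutral carriers, had 10 genes in the table, of which 2 were called higher, 5 lower and 3 not. The 2 that rose act at the lysosome. Slc38a7, which lets glutamine out of the lysosome, measured 53.2, 54.2 and 60.3 CPM in cytokine libraries, against 19.4, 21.8 and 23.2 CPM in vehicle libraries, with no overlap (log2 fold change 1.38 ± 0.087, adjusted p = 2.0e-10). Slc38a9, the lysosomal arginine sensor upstream of mTORC1, measured 6.29, 6.18 and 6.70 CPM with cytokines, against 3.90, 3.64 and 3.18 CPM with vehicle (log2 fold change 0.84 ± 0.16, adjusted p = 1.3e-04).

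Those that fell included carriers of the cell surface. Slc38a5, a glutamine, histidine and asparagine carrier, measured 1.61, 1.08 and 1.81 CPM in cytokine libraries, against 22.2, 19.2 and 23.6 CPM in vehicle libraries. The log2 fold change was -3.84 ± 0.24 (adjusted p = 3.0e-09). Slc38a4, which takes up small neutral and cationic amino acids, measured 81.7, 69.1 and 66.6 CPM with cytokines, against 289, 276 and 272 CPM with vehicle (log2 fold change -1.94 ± 0.081, adjusted p = 7.9e-13). Marker sums of several cell types, such as alpha, delta and endothelial cells, were also lower in every cytokine library than in every vehicle library. Their part in the falls of Slc38a5 and Slc38a4 was not tested. Slc38a2, the carrier that cells induce when short of amino acids, measured 76.6, 77.6 and 82.6 CPM with cytokines, against 121, 111 and 109 CPM with vehicle, a fall of 0.53 ± 0.073 on the log2 scale (adjusted p = 4.4e-06). Slc38a10 measured 309, 286 and 288 CPM with cytokines, against 487, 478 and 473 CPM with vehicle (log2 fold change -0.70 ± 0.065, adjusted p = 3.4e-08). Slc38a8 had 4 counts over the cytokine libraries and 50 over the vehicle libraries, a ratio of 0.0786 (95% exact interval 0.0206 to 0.214, counting error only), and was called lower (adjusted p = 8.6e-04). Slc38a1, Slc38a3 and Slc38a6 were at 2.02 CPM or less in every cytokine and vehicle library and were not called.

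Of the 2 carriers of family 36, 1 was called higher and 1 lower. Slc36a1, a carrier of small amino acids found on lysosomes, averaged 4.78 CPM with cytokines and 3.16 CPM with vehicle, a log2 fold change of 0.60 ± 0.19 (adjusted p = 0.0098), which was not called without cytokines replicate 3 (adjusted p = 0.057). Slc36a4, which carries proline and tryptophan, measured 8.83, 8.09 and 8.31 CPM in cytokine libraries, against 17.5, 16.5 and 15.6 CPM in vehicle libraries (log2 fold change -0.97 ± 0.11, adjusted p = 2.8e-07).

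Family 6 held the gene with the largest change. Slc6a14, which takes up neutral and cationic amino acids together with sodium and chloride, measured 50, 51.8 and 70.5 CPM in cytokine libraries, against 0.424, 0.234 and 0.414 CPM in vehicle libraries. The vehicle libraries held 24 counts of it in all and the cytokine libraries 3694. The log2 fold change was 7.30 ± 0.27 (adjusted p = 7.9e-11), a fold of 157. Slc6a9, the glycine carrier, measured 12.8, 21.7 and 13.8 CPM with cytokines, against 7.89, 8.36 and 7.41 CPM with vehicle, a log2 fold change of 1.03 ± 0.32 (adjusted p = 0.016). This call was lost without cytokines replicate 3 (adjusted p = 0.055) and without vehicle replicate 4 (adjusted p = 0.051), and 27.8% of the gene's exonic bases are shared with Ccdc24. Slc6a8, the creatine carrier, measured 15.6, 16.9 and 15.9 CPM with cytokines, against 9.42, 10.3 and 8.84 CPM with vehicle (log2 fold change 0.76 ± 0.13, adjusted p = 3.4e-05).

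Slc6a19, the sodium-coupled neutral carrier of gut and kidney epithelia, fell to 12.4, 14.4 and 13.6 CPM in cytokine libraries, against 31.7, 30.5 and 36.6 CPM in vehicle libraries (log2 fold change -1.29 ± 0.099, adjusted p = 2.7e-09). The antisense gene Slc6a19os, whose exons share no base with those of Slc6a19, had 11 counts with cytokines and 313 with vehicle, a ratio of 0.0345 (95% exact interval 0.0171 to 0.0627, counting error only; adjusted p = 5.7e-07). Slc6a17, a neutral amino acid carrier of synaptic vesicles, measured 7.74, 8.73 and 9.02 CPM with cytokines, against 18.6, 23.6 and 21.1 CPM with vehicle (log2 fold change -1.31 ± 0.12, adjusted p = 3.3e-08). Slc6a6, the taurine carrier, measured 173, 157 and 153 CPM with cytokines, against 190, 190 and 200 CPM with vehicle, a small fall of 0.26 ± 0.063 on the log2 scale (adjusted p = 0.0012). Slc6a15, a branched-chain amino acid and proline carrier, ran from 0.687 to 2.42 CPM with cytokines and from 0.967 to 2.15 CPM with vehicle, without a call. Slc7a6os rose to 13.1, 12.0 and 14.3 CPM with cytokines, against 9.46, 9.58 and 8.33 CPM with vehicle (log2 fold change 0.52 ± 0.11, adjusted p = 2.6e-04).

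Levels were compared between genes per length. With vehicle, Slc3a2 led at 83.3 ± 3.40 CPM per kilobase, followed by Slc7a5 at 75.7 ± 5.92, Slc38a10 at 74.6 ± 1.12, Slc38a4 at 65.5 ± 2.10 and Slc7a8 at 57.0 ± 0.503 (SD, n = 3 each). Slc7a5 overlapped with both of its neighbours in this order, while the ranges of Slc38a10, Slc38a4 and Slc7a8 were apart from each other. With cytokines, Slc3a2 stood at 234 ± 2.83 CPM per kilobase, Slc7a5 at 69.8 ± 7.38 and Slc38a10 at 45.8 ± 1.95. Slc6a6, Slc38a4 and Slc6a14 came next at 19.1, 17.0 and 16.7 CPM per kilobase and overlapped with each other. Slc6a14 was thus sixth of 36 with cytokines, against rank 33 with vehicle, where it stood at 0.104 CPM per kilobase. The summed level per length over all 36 genes was 504, 508 and 490 CPM per kilobase in cytokine libraries, against 503, 500 and 494 CPM per kilobase in vehicle libraries, with overlapping ranges. The plain sum, which weights long genes more, was lower in every cytokine library, at 2324, 2314 and 2245 CPM, against 2624, 2615 and 2568 CPM in vehicle libraries.

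**Figure D3:**
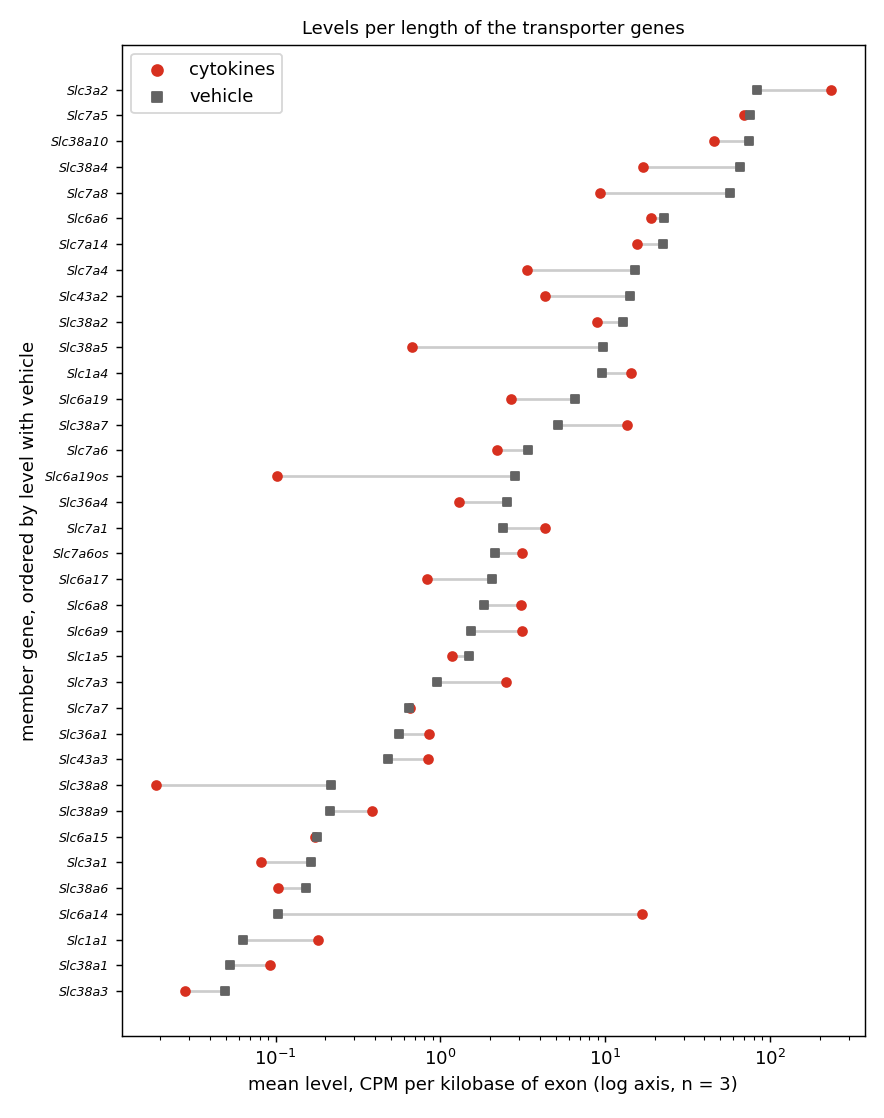
The horizontal log axis gives the mean level in CPM per kilobase of exon (n = 3) with cytokines (circles) and with vehicle (squares), and the 36 genes run down the page by their level with vehicle. Slc3a2 at the top moved right to 234, Slc7a8 moved left to 9.30, and Slc6a14 moved furthest, to 16.7 with cytokines against 0.104 with vehicle.

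The cytokine response could be measured again in islets that also received ML351. The 2 cytokine comparisons share no library, though both draw on the spread of all 12. Between cytokines plus ML351 and ML351 alone, 27 of the 36 genes were called, 13 higher and 14 lower, against 71.5% of all genes, 35.2% higher and 36.4% lower. Both comparisons called 25 of the genes in the same direction, 12 higher and 13 lower, and 0 in opposite directions. The share of all genes called in the same direction in both was not computed. The agreement is therefore not read as particular to the transporters. Without ML351 replicate 1 and cytokines replicate 1 together, 12 were higher and 14 lower. Slc6a14 measured 57.4, 55.4 and 73.8 CPM with cytokines plus ML351, against 0.297, 0.219 and 0.591 CPM with ML351 (log2 fold change 7.38 ± 0.26, adjusted p = 5.7e-11). Slc3a2 measured 860, 916 and 844 CPM with cytokines plus ML351, against 303, 306 and 284 CPM with ML351 (1.55 ± 0.054, adjusted p = 8.6e-14). Slc38a5 fell to 0.684, 0.883 and 1.5 CPM with cytokines plus ML351, against 30.9, 29.1 and 20 CPM with ML351 (-4.71 ± 0.25, adjusted p = 6.9e-10). Slc7a8 fell to 51.3, 47.5 and 44.0 CPM with cytokines plus ML351, against 282, 310 and 234 CPM with ML351 (-2.53 ± 0.094, adjusted p = 9.5e-13). Alpha cell markers summed to 740 to 1681 CPM in libraries with cytokines plus ML351, against 27741 to 40448 CPM in those with ML351, and again 8 of 8 markers were called lower. Of the acinar markers 11 of 19 were called higher (1117 to 1647 CPM with cytokines plus ML351, 106 to 294 CPM with ML351), where 0 were called between cytokines and vehicle. Of the ductal markers 4 of 6 were higher and 1 lower (1433 to 1555 CPM with cytokines plus ML351, 670 to 847 CPM with ML351), and of the macrophage markers 9 of 12 were higher and 1 lower (315 to 321 CPM with cytokines plus ML351, 170 to 190 CPM with ML351). Ductal and macrophage sums were also higher in cytokine than in vehicle libraries. Delta cell markers (5 of 5), endothelial markers (9 of 9) and beta cell markers (9 of 11) were lower, as they were between cytokines and vehicle.

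A few genes were called in 1 of the 2 comparisons. Slc1a1, Slc6a6 and Slc7a6 were called in cytokines against vehicle alone, and Slc38a1 and Slc7a5 in cytokines plus ML351 against ML351 alone. Slc7a5 measured 245, 238 and 223 CPM with cytokines plus ML351, against 259, 314 and 266 CPM with ML351, a log2 fold change of -0.25 ± 0.087 (adjusted p = 0.018). This call was lost without ML351 replicate 2 (adjusted p = 0.11) and without cytokines plus ML351 replicate 4 (adjusted p = 0.080). Slc38a1, a system A carrier of glutamine and alanine, averaged 2.35 CPM with cytokines plus ML351 and 0.956 CPM with ML351 (1.31 ± 0.38, adjusted p = 0.0055). For none of these 5 did the interaction of both treatments pass the test in edgeR, with adjusted p from 0.33 for Slc6a6 to 0.86 for Slc38a1. The glycine carrier Slc6a9 measured 29.8, 29.4 and 23.3 CPM with cytokines plus ML351, against 14.9, 7.21 and 6.50 CPM with ML351 (1.54 ± 0.31, adjusted p = 0.0015), and its highest ML351 library was replicate 1, the one that stood apart on the second component. The low-count Slc38a8 had 1 count with cytokines plus ML351 and 58 with ML351, a ratio of 0.0201 (95% exact interval 0.000499 to 0.116). Slc36a1 was called here by a small margin (adjusted p = 0.046), and in 13 of 22 other settings it was not.

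**Figure D4:**
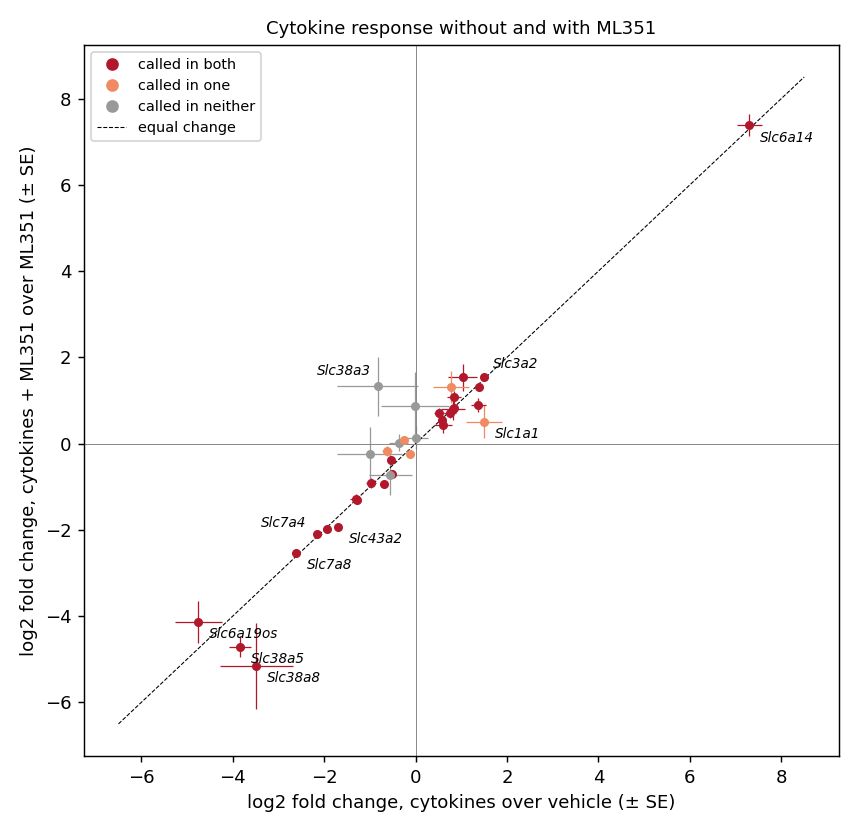
Each point is 1 of the 36 genes, with the log2 fold change of cytokines over vehicle on the horizontal axis, that of cytokines plus ML351 over ML351 on the vertical axis, and SE bars on both. Genes called in both lie at the lower left, such as Slc38a5 (-3.84 and -4.71) and Slc6a19os (-4.75 and -4.13), or the upper right, up to Slc6a14 (7.30 and 7.38). Slc38a8, also at the lower left and with few counts, is among the farthest from the dashed line of equal change (-3.49 and -5.16).

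ML351 alone moved none of the transporter genes past the test. Against vehicle, edgeR called 0 of the 36, and 5 of all 14089 genes (0.0355%). DESeq2 also called 0, and at an unadjusted p under 0.05 the count was 1 of 36, against 8.98% of all genes. That 1 was Slc7a14, at 254, 266 and 221 CPM with ML351, against 214, 238 and 207 CPM with vehicle (0.17 ± 0.071, adjusted p = 0.48). Next by p came Slc6a19, at 39.1, 37.6 and 36.6 CPM with ML351 and 31.7, 30.5 and 36.6 CPM with vehicle (0.20 ± 0.094, adjusted p = 0.56), and Slc6a6, at 178, 192 and 170 CPM with ML351 and 190, 190 and 200 CPM with vehicle (-0.11 ± 0.063, adjusted p = 0.67). In each, the groups overlapped or touched. The median size of the log2 fold change was 0.07 in the transporters and 0.10 over all genes.

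In the presence of cytokines, 1 transporter gene differed with ML351. Between cytokines plus ML351 and cytokines, edgeR called Slc7a6 higher and no member lower, against 1.43% of all genes, 0.646% higher. Slc7a6 measured 13.5, 15.7 and 13.7 CPM with cytokines plus ML351, against 11, 10.6 and 8.62 CPM with cytokines, with no overlap (log2 fold change 0.51 ± 0.11, adjusted p = 0.040). The same 3 cytokine libraries give its fall against vehicle above. The call was lost in 15 of 23 other settings, with adjusted p from 0.012 to 0.13. At an unadjusted p under 0.05, 7 of the 36 passed, against 15.7% of all genes.

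Other genes had small p-values in this comparison. Slc6a6 measured 185, 199 and 184 CPM with cytokines plus ML351, against 173, 157 and 153 CPM with cytokines (0.23 ± 0.063, adjusted p = 0.080; 0.027 with DESeq2). Slc1a5 measured 6.94, 7.90 and 8.24 CPM with cytokines plus ML351, against 3.31, 5.45 and 5.84 CPM with cytokines (0.67 ± 0.21, adjusted p = 0.12). Both groups of values were free of overlap without passing the edgeR test. In all, 8 of the 36 genes did not overlap between these groups, against 20.4% of all genes. Of 26 acinar cell markers listed, 19 were measured, and 0 of these were called in either direction. Their sums were 1117 to 1647 CPM with cytokines plus ML351. With cytokines they varied widely between libraries, at 39.4, 667 and 955 CPM. Of the endothelial markers 3 of 9 were called lower (11 to 16.7 CPM with cytokines plus ML351, 18.5 to 26 CPM with cytokines), as were 2 of 12 macrophage markers (315 to 321 CPM with cytokines plus ML351, 353 to 373 CPM with cytokines) and 1 of 6 ductal markers (1433 to 1555 CPM with cytokines plus ML351, 1467 to 2008 CPM with cytokines). Of the 5 delta cell markers 1 was called higher (147 to 213 CPM with cytokines plus ML351, 99.9 to 145 CPM with cytokines). The part of these markers in the transporter values was not tested.

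Averaged over both backgrounds, ML351 gave 0 calls among the 36 in edgeR and in DESeq2, against 1.55% of all genes, and 5 of 36 at an unadjusted p under 0.05, against 16.9% of all. The smallest p were those of Slc7a6 (0.28 ± 0.079, adjusted p = 0.082), Slc1a5 (0.47 ± 0.14, adjusted p = 0.10) and Slc6a19 (0.20 ± 0.069, adjusted p = 0.15). The interaction, the change of the cytokine response under ML351, gave 0 calls in edgeR, against 0.0071% of all genes, and 6 of 36 at an unadjusted p under 0.05, against 8.23% of all. The first of these was Slc6a6 (0.34 ± 0.089, adjusted p = 0.33), which DESeq2 called (adjusted p = 0.034), followed by Slc7a6 (0.45 ± 0.16, adjusted p = 0.45) and Slc38a10 (-0.23 ± 0.092, adjusted p = 0.52).

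**Figure D5:**
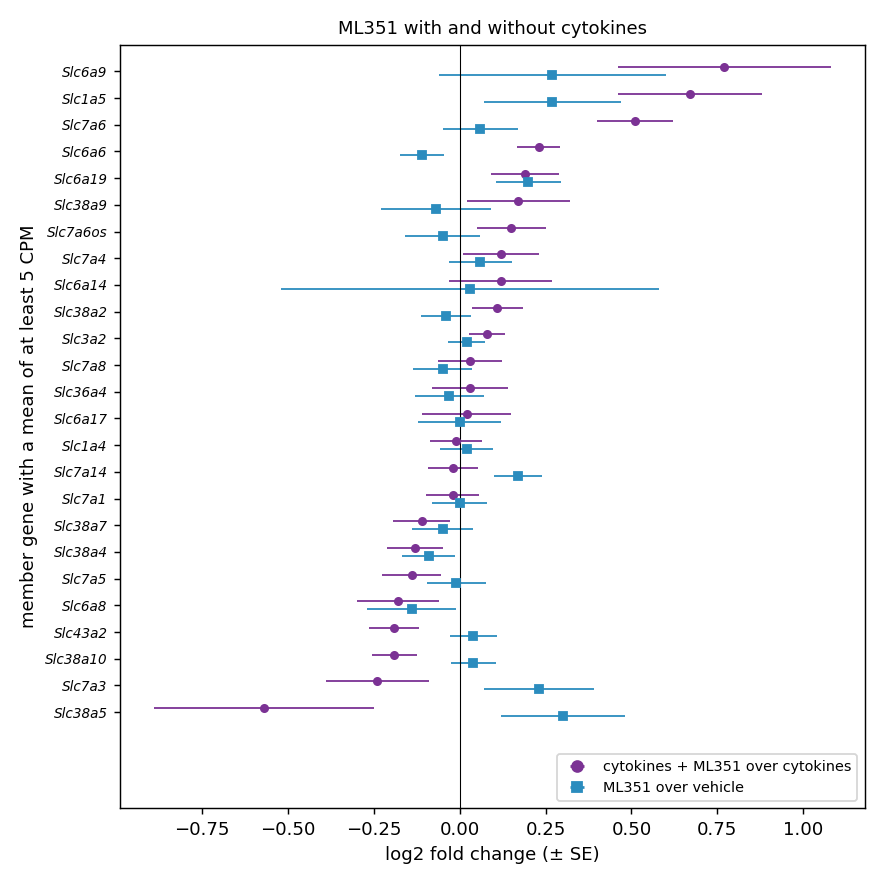
For the 25 genes with a mean of at least 5 CPM, the horizontal axis gives the log2 fold change (± SE) of cytokines plus ML351 over cytokines (circles) and of ML351 over vehicle (squares). Only Slc7a6, at 0.51 in the presence of cytokines, passed the edgeR test, and the 2 values of Slc6a6, at 0.23 and -0.11, lie on opposite sides of 0.

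Genes around the transporters were described by lists, and every count is for the same test over all genes. The shares over all genes to read them against are 35.3% higher and 37.2% lower for cytokines against vehicle, and 35.2% higher and 36.4% lower for cytokines plus ML351 against ML351. The amino acid response list, with the kinases that sense shortage, their factors ATF4 and CHOP, and enzymes of serine, proline and asparagine synthesis, had 30 of 30 genes measured. Of these 18 were higher and 7 lower with cytokines against vehicle, with a median log2 fold change of 0.52, against -0.02 over all genes. Ddit3, which encodes CHOP, averaged 501 ± 31.6 CPM with cytokines and 19.3 ± 0.646 CPM with vehicle (SD, n = 3 each, as for the other means of these lists). Trib3, a pseudokinase target of CHOP and ATF4, averaged 301 ± 6.36 CPM with cytokines and 33.0 ± 1.67 CPM with vehicle, and Cebpg, a partner of ATF4, 97.9 ± 0.582 CPM with cytokines and 39.3 ± 2.44 CPM with vehicle. Mthfd2, of mitochondrial folate metabolism, averaged 214 ± 9.92 CPM with cytokines and 104 ± 2.81 CPM with vehicle. These 4, named for the smallest p, all rose, but the proline synthesis genes Pycr1 and Aldh18a1 went the other way. Pycr1 measured 24.8, 26.3 and 24.9 CPM with cytokines, against 56.7, 51.1 and 50 CPM with vehicle. Aldh18a1 measured 177, 181 and 172 CPM with cytokines, against 216, 207 and 219 CPM with vehicle. Both were chosen after their values were seen. With ML351 in both groups, 16 of the list were higher and 7 lower.

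Of 35 genes of the mTORC1 amino acid sensing machinery, 11 were higher and 14 lower with cytokines against vehicle (median -0.16), shares near those of all genes, and 12 and 14 with cytokines plus ML351 against ML351. Gatsl2, a CASTOR family gene, averaged 19.6 ± 1.68 CPM with cytokines and 219 ± 6.72 CPM with vehicle. Rragb, a Rag GTPase, averaged 16.6 ± 1.62 CPM with cytokines and 81.4 ± 5.75 CPM with vehicle, and Sesn1, a leucine-sensing sestrin family gene, 10.2 ± 1.45 CPM with cytokines and 36.6 ± 0.458 CPM with vehicle. Fnip2, a partner of folliculin, went the other way, at 167 ± 11.2 CPM with cytokines and 38.1 ± 3.05 CPM with vehicle.

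Of 21 genes of glutamate, GABA, creatine, taurine and branched-chain metabolism measured, 4 were higher and 11 lower with cytokines against vehicle (median -0.36), and 5 and 11 with cytokines plus ML351 against ML351. Glul, which makes glutamine from glutamate, averaged 482 ± 21.3 CPM with cytokines and 64.5 ± 4.58 CPM with vehicle. Gatm, the first enzyme of creatine synthesis, averaged 9.41 ± 0.905 CPM with cytokines and 79.5 ± 1.56 CPM with vehicle, beside the rise of the creatine carrier Slc6a8. Abat, which degrades GABA, averaged 38.5 ± 2.08 CPM with cytokines and 170 ± 5.73 CPM with vehicle, and Ckb, brain-type creatine kinase, 69.1 ± 1.28 CPM with cytokines and 266 ± 20.9 CPM with vehicle.

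Among 19 other amino acid carriers, of mitochondria, lysosomes and other families, 8 were higher and 8 lower with cytokines against vehicle (median -0.09), and 6 and 8 with cytokines plus ML351 against ML351. Slc16a10, which carries aromatic amino acids, averaged 18.6 ± 0.582 CPM with cytokines and 69.1 ± 2.31 CPM with vehicle, and Sfxn2, of the sideroflexin family, 6.76 ± 0.659 CPM with cytokines and 51.6 ± 2.28 CPM with vehicle. Slc25a29, a mitochondrial carrier of basic amino acids, averaged 12.5 ± 1.36 CPM with cytokines and 45.1 ± 1.38 CPM with vehicle, and Slc25a38, the mitochondrial glycine carrier, 62.7 ± 2.19 CPM with cytokines and 22.3 ± 3.85 CPM with vehicle. Of 8 partners and regulators of the transporters, 2 were higher and 6 lower in both cytokine comparisons (medians -1.01 against vehicle and -1.02 with ML351 in both groups). Arl6ip1 averaged 256 ± 9.26 CPM with cytokines and 90.2 ± 3.05 CPM with vehicle, while Prnp, the prion protein, averaged 449 ± 3.50 CPM with cytokines and 1003 ± 56.7 CPM with vehicle, and Nedd4, a ubiquitin ligase, 145 ± 4.74 CPM with cytokines and 305 ± 12.9 CPM with vehicle. Nedd4l, its paralogue, which removes several of these carriers from the membrane, rose to 106 ± 4.73 CPM with cytokines, against 44.7 ± 2.63 CPM with vehicle. Tmem27, also known as collectrin, which Slc6a19 needs in kidney, was called lower, at 243 ± 39.9 CPM with cytokines and 1203 ± 56.8 CPM with vehicle; it was chosen after its values were seen.

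In ML351 alone against vehicle, 0 genes of these 5 lists were called in edgeR. Between cytokines plus ML351 and cytokines, 4 genes were, where 1.43% of all genes were called. The lists had 30, 35, 21, 19 and 8 genes measured, and some genes are in more than 1 list. Gpt2, a mitochondrial alanine aminotransferase in both the response and the glutamate list, averaged 31.8 ± 2.36 CPM with cytokines plus ML351 and 23.7 ± 2.93 CPM with cytokines (adjusted p = 0.035). Gls2, a glutaminase at a low level, averaged 3.02 ± 0.758 CPM with cytokines plus ML351 and 1.17 ± 0.339 CPM with cytokines (adjusted p = 0.043), and Gatsl2 averaged 25.8 ± 2.11 CPM with cytokines plus ML351 and 19.6 ± 1.68 CPM with cytokines (adjusted p = 0.046). Slc25a39, a mitochondrial glutathione carrier, was lower, at 341 ± 7.42 CPM with cytokines plus ML351 and 402 ± 0.554 CPM with cytokines (adjusted p = 0.040). These 4 were not followed through the alternative settings.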

How the data were processed

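RNA was measured in 12 islet libraries made with a nonstranded SMARTSeq v4 kit, per the labels' protocols. The deposited values are whole-number counts of reads per gene symbol, not normalized. FastQC, Subread with featureCounts, STAR and DESeq2 are listed, with the mouse build mm10, in the submitters' processing notes; versions, roles, annotation and filters: not given in the sources used here. From the counts, edgeR 4.0.16 in R 4.3.3 fitted all 12 libraries with a mean per group (TMM scaling, filterByExpr, robust quasi-likelihood F-test), and p-values were adjusted by Benjamini-Hochberg over 14089 genes; a gene was called at an adjusted p under 0.05. SE is the size of the log2 fold change over the square root of F. CPM use TMM-scaled totals. Lengths are merged exons of GENCODE M21 (GRCm38, the assembly of mm10), found for all 36 genes. The test was run on simulated data first. DESeq2 1.42.0, other scalings, filters, a replicate block, and leaving out each library were alternatives. In no pair of replicates did the counts match within sampling noise.

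The members and lists were chosen with earlier results of these data known. Per-library values are given for genes with a mean of at least 5 CPM called with cytokines (up to 12 per direction), those called with ML351, and the 3 smallest p in each ML351 contrast; the 4 smallest p of a list are named for cytokines against vehicle, plus those called with ML351; an exception is stated where it is named. Other genes have single values, counts or ranges. Counting intervals cover counting error only. 1 gene of a list is not reported here and was left out of its counts.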

Additional observations from a re-analysis of the deposited data

How the results depend on the processing

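Counts of transporter genes called in the cytokine comparisons stayed within 1.5 times their value under every alternative: 10 to 14 higher and 13 to 17 lower against vehicle, and 10 to 13 higher and 12 to 15 lower with ML351 in both groups. Of 639 values for the 28 genes called against vehicle, 635 kept direction and call, as did 598 of 615 for the 27 genes called with ML351 in both groups, and none changed sign. Those lost against vehicle were Slc6a9 (also under the replicate block, adjusted p = 0.072) and Slc36a1; with ML351 in both groups, Slc36a1, Slc7a5 and Slc43a3 (adjusted p = 0.056 without ML351 replicate 2 and 0.064 without cytokines plus ML351 replicate 2). Upper quartile scaling moved the median of all genes by -0.123 and -0.118 on the log2 scale in these 2 comparisons. The count called higher between cytokines plus ML351 and cytokines, 1, was 0 with library totals only, the non-robust fit, the replicate block, only the groups compared, or without both ML351 replicate 1 and cytokines replicate 1 (chosen after seeing the data), was 2 with DESeq2, and ranged from 0 to 2 when 1 library was left out. The interaction count, 0, was 1 with DESeq2. The cause was not tested. Same-numbered libraries did not correlate more often than others: 2 of 13 same-numbered pairs correlated above 0.1 (-0.38 to 0.20), against 14 of 41 others. These correlations are of deviations from means of only 3 libraries. They cannot decide whether libraries of the same number share an animal or a batch. Genes under about 5 CPM rest on fewer counts and are read with more caution. Whether depth or the spread between replicates limits them was not tested.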
